A study of Mus musculus with 16 samples.

Results

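Dus1l and its relatives Dus2l, Dus3l and Dus4l encode the mammalian tRNA dihydrouridine synthases, and their transcripts were followed here in mouse liver under 4 diets. The 4 genes were found by an exact match to the gene symbol, out of 20826 symbols in the count table, and each had 1 RefSeq entry there. Dus1l had been picked because it was higher with a krill extract on both diets, so its extract contrasts are given below as a description without a test. The other 3 genes were taken as members of the same family. Of the 4 genes, 3 had at least 1 tag and 1, Dus1l, had enough tags to enter the test across genes.

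Male C57BL/6J mice, listed at an age of 4 weeks, were fed for 18 weeks. HFW mice received a high-fat diet (45% fat) containing 1% WEPAK, a Pacific krill extract that is soluble in water. HF mice received the high-fat diet alone. NW mice received the normal diet (10% fat) containing 1% WEPAK, and N mice the normal diet alone. Each group held 4 mice and each mouse gave 1 library, named here by its group and mouse number. Transcripts in total liver RNA were counted by SuperSAGE, which reads a short tag next to an NlaIII site and so counts about 1 tag per captured transcript whatever its length. Libraries held 56655 to 149349 tags in named genes, so that 1 tag stood for 6.70 to 17.7 CPM, the tag count scaled to a library of standard size, before normalization. All CPM values below use the normalized library size unless stated otherwise.

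Dihydrouridine synthases are flavin enzymes that reduce chosen uridines of tRNA to dihydrouridine, a non-planar base that loosens stacking and gives the D loop of tRNA its name. In yeast the 4 enzymes act at different positions: Dus1, the yeast relative of Dus1l, and Dus2 and Dus4 act in the D loop, and Dus3 acts in the variable loop. Dihydrouridine is made after transcription, so the amount of a synthase transcript does not by itself give the amount of the base.

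The sequence that stands for each gene in this assay is shown because each gene's level is read at a single site. The tags below are predicted, from the last NlaIII site of the GENCODE M21 transcript (GRCm38) paired with the RefSeq entry. The capitals mark the NlaIII site, and each tag is 26 bases long.
Dus1l: CATGgattgctttttaagaccaaatt
Dus2l: CATGcaaacctagaggtcttggccca
Dus3l: CATGgttgcccgtggtgccttgctca
Dus4l: CATGgattcagtagattgtgagcaga

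The Dus1l tag lies at chr11:120789532-120789557 on the minus strand, in the coding part of exon 14 of 14. The Dus2l tag, named Dus2 in GENCODE, lies at chr8:106053626-106053651 on the plus strand, in the 3' UTR within exon 16 of 16. The Dus3l tag crosses a splice junction of the coding sequence, from exon 10 to exon 11 of 13, between chr17:56769114-56769263 on the plus strand. The Dus4l tag lies at chr12:31640218-31640243 on the minus strand, in the 3' UTR within exon 7 of 7. Each transcript held between 9 and 13 NlaIII sites, and the last one stood 194 to 436 bases from the transcript's end. None of the 4 tags occurred in a transcript of another gene (0 other genes each). The Dus1l tag was present in 7 of the 9 annotated Dus1l transcripts. The Dus2l tag was present in 2 of 6, the Dus3l tag in 3 of 4 and the Dus4l tag in 1 of 3. A transcript without the tag is not counted by it, so levels of different genes are not directly comparable. Which tags the authors assigned to each entry is not given in the sources used here.

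Dus1l was by far the best covered of the family. It had 577 tags, at least 9 in each of 16 libraries, and ranked 330 of 10171 genes with a tag. Over all libraries that was 418 CPM of the raw total, with an exact Poisson 95% interval of 385 to 454. Dus2l had 3 tags in all, or 2.17 CPM (interval 0.449 to 6.36), and Dus3l had 4, or 2.90 CPM (interval 0.790 to 7.43). Dus4l had 0 tags, for which 3 tags over all libraries (2.17 CPM) were taken as a limit. Its exact Poisson 95% interval reached 2.675 CPM. Dus1l thus had 192 tags for each Dus2l tag (95% interval 65.5 to 935) and 144 for each Dus3l tag (interval 56.0 to 531). It was 192-fold above the 3 tags taken as the limit for Dus4l. These intervals cover counting error only, since the labels name no molecular identifiers, and a tag is not recovered equally well from every gene.

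Among HFW mice, Dus1l had 482 CPM in mouse 34, 475 in mouse 36, 483 in mouse 38 and 669 in mouse 40, from 42, 27, 26 and 72 tags. Among HF mice it had 199 CPM in mouse 23, 187 in mouse 25, 73.3 in mouse 28 and 231 in mouse 29, from 19, 30, 9 and 27 tags. Every HFW mouse was above every HF mouse. The group means were 527.5 ± 94.5 CPM in HFW and 173 ± 68.9 CPM in HF (SD, n = 4 each).

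NW mice held the most Dus1l, with 832 CPM in mouse 11, 860 in mouse 12, 677 in mouse 15 and 1021 in mouse 20, from 49, 101, 36 and 58 tags. N mice had 149 CPM in mouse 4, 265 in mouse 5, 292 in mouse 7 and 351 in mouse 8, from 10, 28, 22 and 21 tags. Every NW mouse was above every N mouse. The means were 847.5 ± 141 CPM in NW and 264 ± 84.6 CPM in N (SD, n = 4 each).

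**Figure D1:**
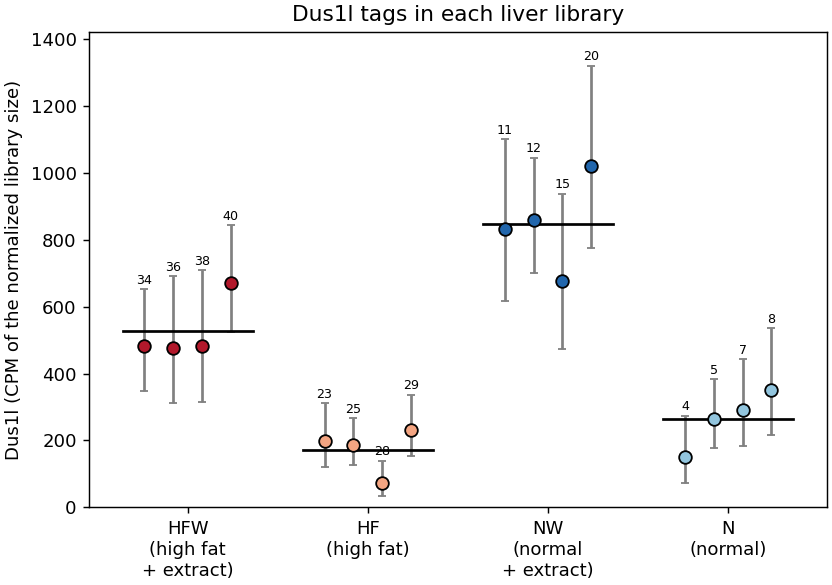
Dus1l level in each library, in CPM of the normalized library size, for HFW, HF, NW and N mice. Points are mice, with their number above, thin bars are exact Poisson 95% intervals of the tag count and horizontal lines are group means. The HFW mice lie between 475 and 669 CPM and the NW mice between 677 and 1021 CPM, above the highest mouse without extract at 351 CPM.

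The values that picked Dus1l were as follows. The log2 fold change was 1.63 (SE 0.31) in HFW against HF, a 3.09-fold difference, and 1.68 (SE 0.31) in NW against N, a 3.20-fold difference. The mean over both diets was 1.65 (SE 0.22), or 3.14-fold, and it placed Dus1l at rank 1 of 1046 tested genes from the highest. The 2 single contrasts placed it at ranks 3 and 2. For scale, 9.85% of the tested genes were called in HFW against HF, 11% in NW against N and 31.3% in the mean extract effect, in either direction and at an adjusted p under 0.05 in edgeR. Groups did not overlap for 15.9% of genes in HFW against HF and for 15.4% in NW against N. The 2 fold changes differed by -0.05 (SE 0.46) on the log2 scale, so that each diet alone gave nearly the same estimate, with an error that leaves room for a sizeable difference.

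Mice of 1 group differed in Dus1l clearly more than counting alone gives in HF only. Chi-square over degrees of freedom (3 in each group) is near 1 for counting alone. It was 3.33 in HF, 1.51 in HFW, 1.28 in NW and 1.76 in N. The coefficient of variation was 17.9% in HFW, 39.9% in HF, 16.6% in NW and 32.0% in N, where counting error alone would give 15.5%, 21.7%, 12.8% and 22.2%. HF was the most uneven group, with mouse 28 below the others. The biological coefficient of variation fitted for Dus1l was 24.5%, and its median over the tested genes was 26.3%. The fit draws the value of each gene toward a trend shared by all genes, so the closeness of these 2 values is partly built in.

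The diet contrasts were not used to pick Dus1l. Dus1l was lower on the high-fat diet in both settings by its mean, and neither difference passed the test across genes. In HF against N the log2 fold change was -0.61 (SE 0.33, edgeR quasi-likelihood test, adjusted p = 0.556), with all 4 HF mice below the N mean, and the groups overlapped. In HFW against NW it was -0.66 (SE 0.29, edgeR, adjusted p = 0.361), and the groups did not overlap, with 475 to 669 CPM in HFW and 677 to 1021 CPM in NW. The gap between the nearest mice, HFW mouse 40 and NW mouse 15, was smaller than the counting interval of either. In these contrasts 0.0956% (HF against N) and 0% (HFW against NW) of genes were called by edgeR, with 103 and 126 genes at an unadjusted p under 0.05, and 2.96% and 8.8% had groups that did not overlap.

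Averaged over both settings, Dus1l on the high-fat diet was 0.644 times its level on the normal diet, a log2 fold change of -0.63 (SE 0.22). All 8 high-fat mice were below the normal-diet mean of the same extract state. The difference did not pass (edgeR, unadjusted p = 0.0063, adjusted p = 0.108), in a contrast with 0.574% of genes called. With N mouse 4 left out it passed the same test (-0.72, edgeR, adjusted p = 0.0286), but that fit called 107 of 1205 genes, or 8.88%, in this contrast. Over all mice left out in turn the value ran between -0.72 and -0.50 (edgeR, adjusted p = 0.0286 to 0.261). An exact two-sided permutation test of Dus1l alone, added after the data had been seen and not adjusted over genes, gave differences of -205.8 CPM for the mean (p = 0.00408), -91.6 CPM for HF against N (p = 0.171) and -319.9 CPM for HFW against NW (p = 0.0286, the smallest that 4 against 4 mice allow).

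**Figure D2:**
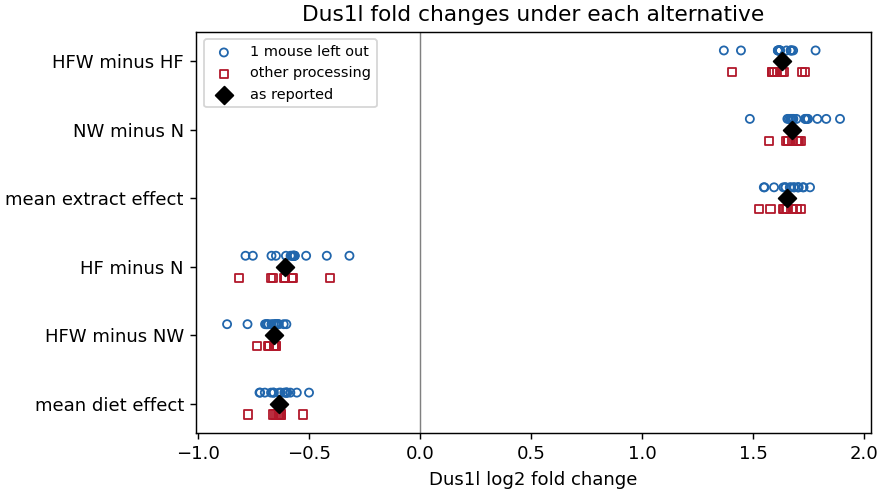
Log2 fold change of Dus1l in each contrast under each way of processing the counts. Diamonds are the values as reported, circles leave out 1 mouse and squares change another step. The 3 extract contrasts, from which Dus1l was picked, stay between 1.37 and 1.89, and the 3 diet contrasts stay below 0.

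By mean level the order was NW, HFW, N and HF. NW and HFW did not overlap, nor did HFW and N, whose highest mouse had 351 CPM against 475 CPM in the lowest HFW mouse. HFW and N differ in diet and also in extract, which picked Dus1l. The share of genes without overlap between HFW and N was not computed. The neighbours N and HF overlapped. In bulk liver, more Dus1l RNA per cell and more cells that carry it cannot be told apart.

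Markers of liver cells bear on that point. All 12 hepatocyte markers had tags, and together they made up 7.69% of all tags. Their summed level was 76560 ± 13010 CPM in HFW and 64950 ± 5585 CPM in HF, and 99480 ± 9109 CPM in NW and 76150 ± 11770 CPM in N (SD, n = 4 each). This sum was higher with extract and lower on high fat by its means, as Dus1l was. The 10 tested markers had a median log2 fold change of 0.31 in the mean extract effect, against 1.65 for Dus1l. In the mean diet effect that median was -0.34, against -0.63 for Dus1l. The part of these markers in the Dus1l differences was not tested. The tested markers did not all go one way: of 10, edgeR called 0 higher and 1 lower in HFW against HF, 0 in NW against N, and 1 higher and 1 lower in the mean extract effect. The shares called over all genes in these contrasts were 9.85%, 11% and 31.3%, so the marker counts do not stand out. Macrophage markers, of which 10 of 12 in the table had tags and Cd68 and Lyz2 were at 0, summed to between 510.5 and 1263 CPM in HFW, 574 and 1090 in HF, 560 and 945 in NW, and 746 and 985 in N. Endothelial markers (9 of 9 with tags) ranged from 651 to 769 CPM in HFW, 808 to 984 in HF, 424 to 753 in NW and 467 to 910 in N. Their HFW and HF ranges did not overlap, and their NW and N ranges did. Among all tested genes, 15.9% did not overlap in HFW against HF and 15.4% in NW against N. Of 2 endothelial markers tested, edgeR called 1 lower in the mean extract effect, where the share over all genes was 31.3%. It called 0 in HFW against HF and 0 in NW against N. Stellate cell and fibroblast markers (8 of 9 with tags, Rgs5 at 0) ranged from 863 to 4052 CPM in HFW, 545 to 3966 in HF, 407 to 1073 in NW and 551 to 1074 in N. Their means were 2116 CPM in HFW, 1628 in HF, 762 in NW and 789 in N, higher on high fat where Dus1l was lower. Their spread between mice of 1 high-fat group was wide (SD 1432 in HFW and 1586 in HF), and the ranges overlapped. The 4 tested stellate and fibroblast markers had a median log2 fold change of 1.26 in the mean diet effect. There edgeR called 0 of them, with 0.574% called over all genes. Cholangiocyte markers (3 of 6, with Krt7, Krt19 and Cftr at 0) and lymphocyte markers (4 of 10, with Cd3g, Cd4, Cd8a, Cd79a and Ptprc among those at 0) had 19 and 24 tags in all libraries together.

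The scarce synthases could not be compared in the same way. Dus2l tags came from NW mouse 12, NW mouse 15 and N mouse 4, 1 tag each, and 0 tags came from HFW and HF mice among 778522 tags. Dus3l had 1 tag in each group, in HFW mouse 38, HF mouse 28, NW mouse 20 and N mouse 8. Dus4l had none in any group. The limit of 3 tags per group stood for 9.83 CPM in HFW, 6.06 in HF, 10.5 in NW and 9.75 in N. Among 11 exact two-sided permutation tests of Dus2l and Dus3l, the smallest p was 0.214, for the mean diet effect on Dus2l (-5.28 CPM), and each adjusted p was 1.0. A change of the size seen for Dus1l was not detectable in these genes at this depth.

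Most genes of the wider tRNA machinery also had too few tags to test. Of 158 genes listed for tRNA modification, for processing and transport, and for charging in the cytosol and in mitochondria, 146 were in the table, 105 had a tag and 6 could be tested. Of these 6, 1 was called higher in the mean extract effect, where the share over all genes was 31.3%, and 0 were called lower. In each of the other 5 contrasts 0 of 6 were called by edgeR. The median log2 fold change of the 6 genes was -0.29 in the mean extract effect, against 0.03 over all tested genes.

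Tyw1, which takes part in making wybutosine, a bulky base beside the anticodon of phenylalanine tRNA, was the gene that rose with extract. It had 207, 194, 186 and 269.5 CPM in HFW mice 34, 36, 38 and 40, and 94.4, 125, 228 and 128.5 CPM in HF mice 23, 25, 28 and 29. NW mice 11, 12, 15 and 20 had 238, 204, 245 and 317 CPM, and N mice 4, 5, 7 and 8 had 119, 189, 120 and 200.3 CPM. NW and N did not overlap, as for 15.4% of all tested genes, and HF mouse 28 lay within the HFW range. The mean extract effect was 0.61 (SE 0.23, edgeR, adjusted p = 0.042), with 8 of 8 extract-fed mice above the mean of their diet without extract. It was no longer called with the DESeq2 Wald test (adjusted p = 0.0677), without a filter (adjusted p = 0.552), without N mice 4 and 8 (adjusted p = 0.116) or without any one of N mice 4 and 7, NW mice 11, 15 and 20, HF mice 23, 25 and 29, and HFW mice 38 and 40.

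The other 5 testable genes did not pass by edgeR in the mean extract effect. Trub1, a pseudouridine synthase, averaged 89.6 ± 45.8 CPM in HFW and 133 ± 59.4 in HF, and 98.9 ± 42.6 in NW and 162 ± 33.0 in N (SD, n = 4 each), with a log2 fold change of -0.74 (SE 0.31, adjusted p = 0.0638). Lars2, the mitochondrial leucyl-tRNA synthetase, averaged 65790 ± 11290 CPM in HFW and 47890 ± 17150 in HF, and 86230 ± 4530 in NW and 61810 ± 29670 in N, with a log2 fold change of 0.47 (SE 0.20, adjusted p = 0.0723). Lars2 accounted for nearly all tags of the mitochondrial list, which held 6.28% of all tags. It had the most tags of any gene in the table. The 17 members of that list with too few tags to test summed to group means of 119 to 136 CPM. The predicted Lars2 tag was held by 0 other genes, but which tags the authors counted for Lars2 is not given. Whether all of them came from its own transcript was not tested, so the Lars2 values may not give the synthetase transcript. Trub1 passed with limma-voom (-0.85, adjusted p = 0.0396) and without NW mouse 11, HF mouse 23 or HFW mouse 36 (adjusted p = 0.0489, 0.0363 and 0.0434). Lars2 passed with limma-voom (0.55, adjusted p = 0.033) and without N mouse 8, HF mouse 23 or HFW mouse 34 (adjusted p = 0.00419, 0.0265 and 0.0461), and without N mice 4 and 8 together (0.56, adjusted p = 0.0382).

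Values for Yars2, the mitochondrial tyrosyl-tRNA synthetase, Gars, the glycyl-tRNA synthetase, and Xpot, the tRNA exporter, had log2 fold changes of -0.34 (SE 0.25), -0.38 (SE 0.33) and -0.24 (SE 0.35) in the mean extract effect. In the mean diet effect the largest value of the 6 was that of Xpot, 0.79 (SE 0.35, edgeR, adjusted p = 0.208), with 130 ± 64.7 CPM in HFW and 78.9 ± 72.4 in NW, and 180 ± 33.4 in HF and 85.1 ± 40.3 in N. Dus1l stood at the opposite end in that contrast, at -0.63.

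**Figure D3:**
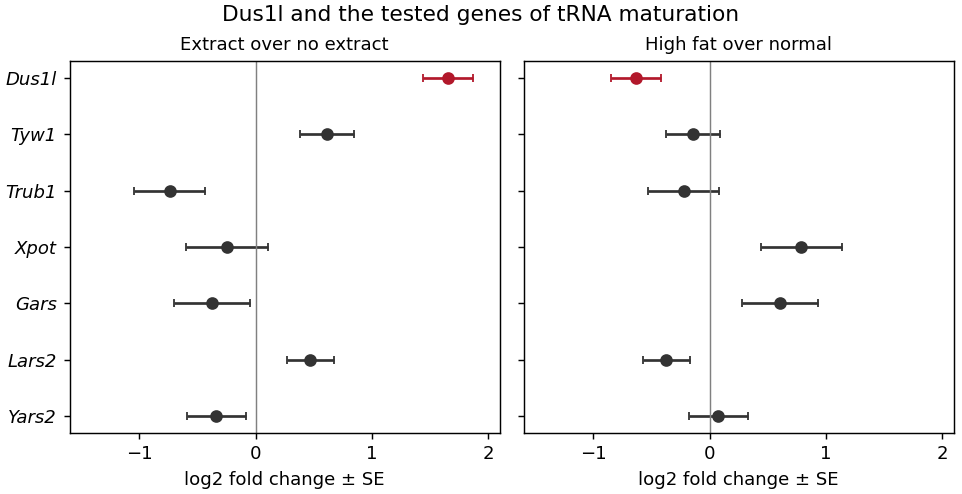
Log2 fold change with its SE for Dus1l (red) and the 6 tested genes of the tRNA lists (black), for extract over no extract on the left and high fat over normal on the right, each the mean of 2 contrasts. Dus1l lies at 1.65 on the left, Tyw1 at 0.61 and Trub1 at -0.74.

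The 140 listed genes in the table with too few tags for a test were summed per library, of which 99 had tags. The sums were 1004 ± 75.7 CPM in HFW and 1036 ± 96.4 CPM in HF, and 1094 ± 148 CPM in NW and 1026 ± 66.1 CPM in N (SD, n = 4 each). The groups overlapped in both extract comparisons, and no difference of the kind seen for Dus1l was visible in these sums. Within the lists, the modification enzymes summed to 384 ± 78.5 CPM in HFW, 401 ± 49.4 in HF, 477 ± 75.0 in NW and 419 ± 21.04 in N.

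**Figure D4:**
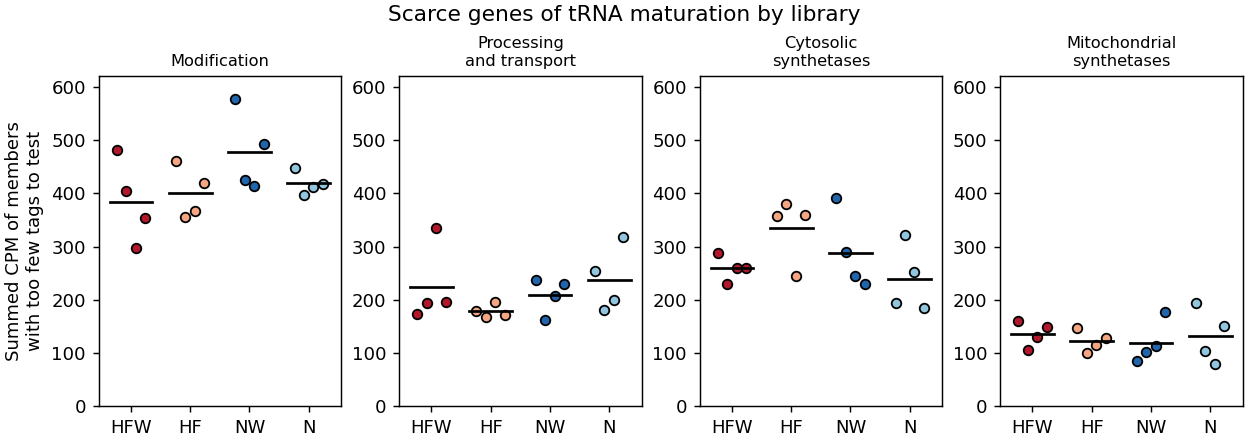
Summed CPM of the list members with too few tags to test, by library, for the 4 tRNA lists. Points are mice and lines are group means. In the modification list the HFW mice lie between 297.5 and 482 CPM and the HF mice between 355 and 461.5 CPM, and the NW mice between 414 and 577 CPM and the N mice between 398 and 448 CPM.

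Dus1l lies next to Fasn, which encodes fatty acid synthase and belongs to the lipogenic genes of liver. Of the 5 genes on each side of Dus1l in the RefSeq order, 8 were in the table and Fasn was the only one with enough tags to test. Fasn averaged 1689 ± 323 CPM in HFW and 1384 ± 729 in HF, and 1322 ± 657 in NW and 1183 ± 818 in N (SD, n = 4 each). Its mean extract effect was 0.21 (SE 0.30, edgeR, adjusted p = 0.641) and its mean diet effect 0.30 (SE 0.30, adjusted p = 0.619), and neither passed. Other neighbours had few tags: Rfng 19, Csnk1d 18, Slc16a3 3, Gps1 2, and Cbr2 and Ccdc57 0 each.

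Among the 6 genes whose level followed Dus1l most closely over the 16 libraries were, by Pearson r of log2 CPM, Sec61a1 (0.901), a subunit of the ER translocon, H2afy (0.901), a macroH2A histone, Pzp (0.893), a plasma protease inhibitor, Trfr2 (0.892), a transferrin receptor, and Cbs (0.891), which makes cystathionine from homocysteine. The median r of the other 1045 tested genes was 0.01 and their 95th percentile 0.773. Without HF mouse 28 and N mouse 4, the lowest of their groups for Dus1l, these 5 genes kept r between 0.8294 and 0.8998 over 14 libraries. The points share libraries and group differences, and the genes were selected by this measure, so r is a description. Sec61a1 averaged 541 ± 101 CPM in HFW and 251 ± 60.9 in HF, and 796 ± 62.8 in NW and 377 ± 127 in N (SD, n = 4 each). Cbs averaged 568 ± 243 CPM in HFW and 248 ± 83.0 in HF, and 1076 ± 202 in NW and 383 ± 171 in N. Both followed the order of the Dus1l means, which their selection by r over the same libraries favours.

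**Figure D5:**
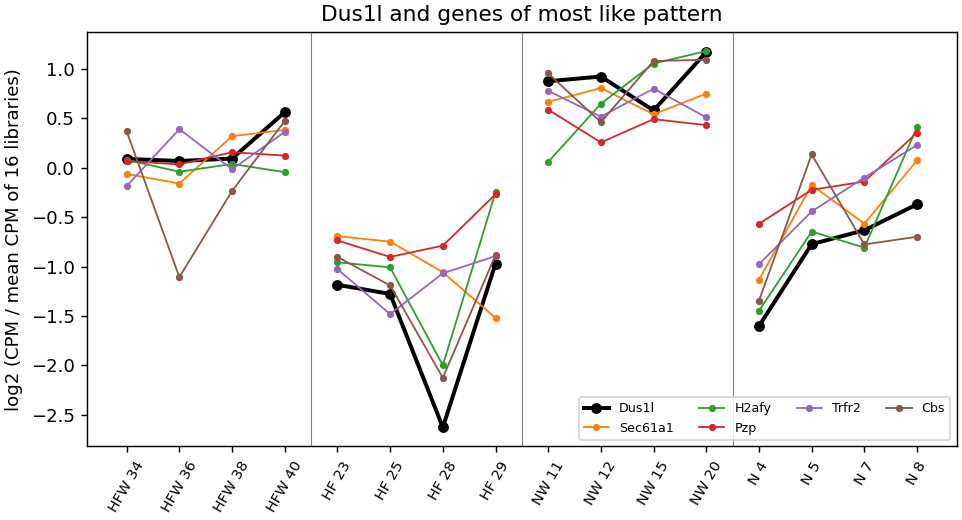
Level of Dus1l (black) and of 5 of the 6 genes with the highest Pearson r to it, as log2 of CPM over the mean CPM of the 16 libraries, by mouse in HFW, HF, NW and N. In each gene shown the mean is highest in NW and lowest in HF, and HF mouse 28 and N mouse 4 hold the lowest Dus1l values (73.3 and 149 CPM).

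After group means were subtracted, which leaves the differences between mice of 1 group, the closest genes were others: Cyp4f14 (0.844), a cytochrome P450 omega-hydroxylase, Gne (0.839), which starts sialic acid synthesis, Pipox (0.834), a peroxisomal oxidase, Upp2 (0.810), a uridine phosphorylase, Wwp1 (0.808), a ubiquitin ligase, and Ces3b (0.789), a carboxylesterase. The median r was -0.01 and the 95th percentile 0.584 over 1045 genes. HF mouse 28 and N mouse 4 were the lowest of their groups for Dus1l and for each of these 6 genes. Without these 2 mice r was between 0.356 and 0.707 over 14 libraries, with a 95th percentile of 0.523 over all genes, and Gne (0.538) and Ces3b (0.707) were above it. The likeness within groups therefore rests largely on those 2 libraries. Pipox averaged 67.3 ± 37.1 CPM in HFW and 70.8 ± 45.4 in HF, and 153 ± 28.5 in NW and 137 ± 37.4 in N, with a mean extract effect of 0.08 (SE 0.33) on the log2 scale, against 1.65 for Dus1l. Upp2 averaged 476.5 ± 138 CPM in HFW and 721 ± 382 in HF, and 928 ± 340 in NW and 912 ± 510 in N.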

How the data were processed

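SuperSAGE tags from liver RNA of each mouse were deposited by the authors as raw counts per RefSeq entry, per the file headers. The tags were made by NlaIII and EcoP15I digestion, per the labels' protocols. The matching of tags, the genome build and the handling of shared tags: not given in the sources used here. No batch is named in the labels.

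Of 26782 rows, 417 without a symbol (0.0729% of tags) were left out, and 40 of 41 symbols turned into dates were restored. Counts were summed per symbol. The median total was 79475.5 tags. Chi-square over degrees of freedom was 2.24 to 9.64 between pairs of libraries of 1 group, above sampling noise.

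edgeR 4.0.16 in R 4.3.3 was run with TMM normalization, its default filter (minimum count 10, 1046 genes), a quasi-likelihood fit (robust) over all 16 libraries and Benjamini-Hochberg adjustment at 0.05. The mean extract effect averages HFW minus HF and NW minus N, and the mean diet effect HF minus N and HFW minus NW. Standard errors are approximate. Scarce members were compared by exact permutation, within diet or extract state for mean effects. Log2 CPM used a prior count of 2.

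Alternatives were DESeq2 size factors and the DESeq2 1.42.0 Wald test, limma-voom (limma 3.58.1), no filter, another filter, a non-robust fit, thinning, leaving out the 10 most abundant genes or each mouse, and, for permutation, other scales. Named genes were the 4 members, tested genes of the tRNA lists, 5 neighbours on each side of Dus1l, and 6 genes per likeness measure, of which some are not reported here. Members and lists were chosen with earlier results of these data known. Neighbours came from RefSeq (GRCm38.p6), by order alone.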

Additional observations from a re-analysis of the deposited data

Results flagged for a closer look

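Among 20 named genes in 4 groups each, 2 of 80 groups held a mouse far from the other 3 of its group, and chance flags about 1 in 20. Dus1l was 669 CPM in HFW mouse 40, with the other HFW mice between 475 and 483 CPM. Without that mouse the HFW against HF and mean extract fold changes of Dus1l kept their direction. Wwp1 was 188 CPM in NW mouse 15, with the other NW mice between 305.5 and 317 CPM.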

How the results depend on the processing

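No paired analysis was possible because the groups have no mouse number in common. The Dus1l extract fold changes kept their direction under each alternative run. These contrasts picked Dus1l, and HFW and HF, like NW and N, did not overlap. Leaving out 1 mouse could therefore hardly turn the sign, and the kept direction is no separate support. With a mouse left out the fold changes were 1.37 to 1.78 (HFW against HF), 1.49 to 1.89 (NW against N) and 1.55 to 1.76 (mean), their difference -0.37 to 0.13. The Dus1l diet effect was called without N mouse 4 and, by an added exact permutation test of Dus1l alone, as -205.8 CPM for the mean and -319.9 CPM for HFW against NW; with a mouse left out it ran from -0.72 to -0.50 for the mean, -0.79 to -0.32 for HF against N and -0.87 to -0.60 for HFW against NW. For the tRNA lists, the count called in the mean extract effect was 0 with DESeq2, 3 with limma-voom, 2 without N mice 4 and 8, and 0 to 3 with a mouse left out; in NW against N it was 0 to 1. The cause was not tested.

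Results on 3 or 4 tags turned with single mice. With a mouse left out, Dus2l ran from -0.892 to 6.83 CPM in NW against N and -0.446 to 3.42 in the mean extract effect, and Dus3l from -2.04 to 4.65 in HFW against HF, -4.17 to 4.4 in NW against N, -4.17 to 2.04 in HF against N, -4.4 to 4.65 in HFW against NW, -0.905 to 3.51 in the mean extract effect and -3.27 to 1.25 in the mean diet effect. Log2 CPM with a prior count scaled to library size changed no call. The same prior left unscaled, run first and replaced after its values were seen, gave unadjusted exact permutation p of 0.042 for the Dus2l mean extract effect (0.52) and 0.0167 for its mean diet effect (-0.62), and -0.11 for Dus3l in HFW against NW; by its construction libraries at 0 tags then differ by depth alone.

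Other reversals were Yars2 in the mean diet effect (-0.017 without HF mouse 25, up to 0.213 with another mouse left out, -0.076 without N mice 4 and 8) and Pipox in the mean extract effect (-0.033 without a filter, -0.069 without N mice 4 and 8, -0.16 to 0.28 with a mouse left out). Counts over all genes ran, with a mouse left out, from 40 to 150 in HFW against HF, 31 to 178 in NW against N, 0 to 31 in HF against N, 0 to 3 in HFW against NW and 0 to 107 in the mean diet effect. The mean diet count was 30 without a filter, 34 with DESeq2, 0 after thinning and 55 without N mice 4 and 8. For NW against N it was 70 without a filter and 38 without N mice 4 and 8, and for HFW against HF 155 without those mice. HF against N gave 2 genes with DESeq2, 0 with limma-voom and 0 after thinning. The filter of 10 counts in 4 libraries kept 1220 genes, so no stricter filter was tested. Leaving out N mice 4 and 8, and HF mouse 28 with N mouse 4 for the likeness values, was chosen after seeing the data. At 0 to 4 tags per gene, depth allows no reading of change in Dus2l, Dus3l or Dus4l.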
